A study of Mus musculus with 82 samples.

Results

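Expression of 10 immune checkpoint genes was followed across 13 mouse mammary tumour models. They were chosen by name: the ligands Cd274 (PD-L1), Pdcd1lg2 (PD-L2), Cd80, Cd86 and Lgals9 (galectin-9), and the receptors Pdcd1 (PD-1), Ctla4, Lag3, Havcr2 (TIM-3) and Tigit. All 10 were found among the 47480 genes of the count table, and all 10 were among the 22847 genes that passed the filter on low counts and were tested.

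The series holds 82 mRNA-seq libraries of mammary tumours, prepared from cryopreserved tissue. BALB/c mice carried 9 models, with 7 libraries of 2153, 12 of 2208, 4 of 2224, 10 of 2225, 11 of 2250, 5 of 2336, 5 of 4T1, 7 of 9263 and 3 of T12. FVB mice carried KPB1-A (2 libraries), MMTV-NEU (8) and MMTV-PYMT (5), and C57BL/6 mice carried E0771 (3). No treatment, age or sex is given in the labels, and no genotype for the numbered models, T12 or KPB1-A. 4T1 and E0771 are transplantable mammary carcinoma cell lines, and MMTV-NEU and MMTV-PYMT are named for an oncogene driven by the mouse mammary tumour virus promoter. Each model comes in 1 strain, so E0771 cannot be told apart from the C57BL/6 background, and the 3 FVB models share theirs.

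Immune checkpoints are pairs of ligand and receptor that restrain T cells once they have been activated. PD-1 binds PD-L1 and PD-L2, CTLA-4 competes with the costimulatory receptor CD28 for CD80 and CD86, TIM-3 binds galectin-9, LAG-3 binds MHC class II and FGL1, and TIGIT binds the poliovirus receptor family. The receptors sit mainly on T and natural killer cells, TIM-3 also on macrophages and dendritic cells, while PD-L1 is made by tumour and myeloid cells and is induced by interferon-gamma.

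Library totals ran from 14444938 to 132712507 counts with a median of 58193845. Levels are given as CPM, the usual depth-corrected unit that divides a gene's count by its library's total, here scaled by the trimmed mean of M values, and differences as log2 differences between 1 model and the unweighted mean of the other 12. A gene was called higher or lower where the edgeR quasi-likelihood test, adjusted over 22847 genes, gave p under 0.05. As a check of the labelled tissue, summed CPM of 6 epithelial markers averaged between 1896 and 4388 in 11 models, and 300.3 in T12 and 412 in E0771. In bulk tumour RNA, fewer cells of a type and less RNA per cell cannot be told apart.

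All 10 genes differed among the 13 models, with adjusted p between 2.60e-28 (Tigit) and 3.85e-14 (Cd80), against a background of 98.2% of all genes tested. Differences between models held a median 77.3% of the variance of the 10 genes and 75.3% of that of all genes. Within models the checkpoint genes spread more widely, with a median SD of 0.83 on the log2 scale against 0.50 over all genes. Of 130 gene-by-model results, 39 were called higher and 35 lower. Of all genes tested, 24% (2224) to 34.2% (2225) were called higher and 14.4% (KPB1-A) to 28.4% (MMTV-NEU) lower. The pooled counts are thus near the shares of all genes. The most genes were called higher in E0771 and 4T1, followed by T12 and 2208, and the most were called lower in 2336 and 2225.

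**Figure D1:**
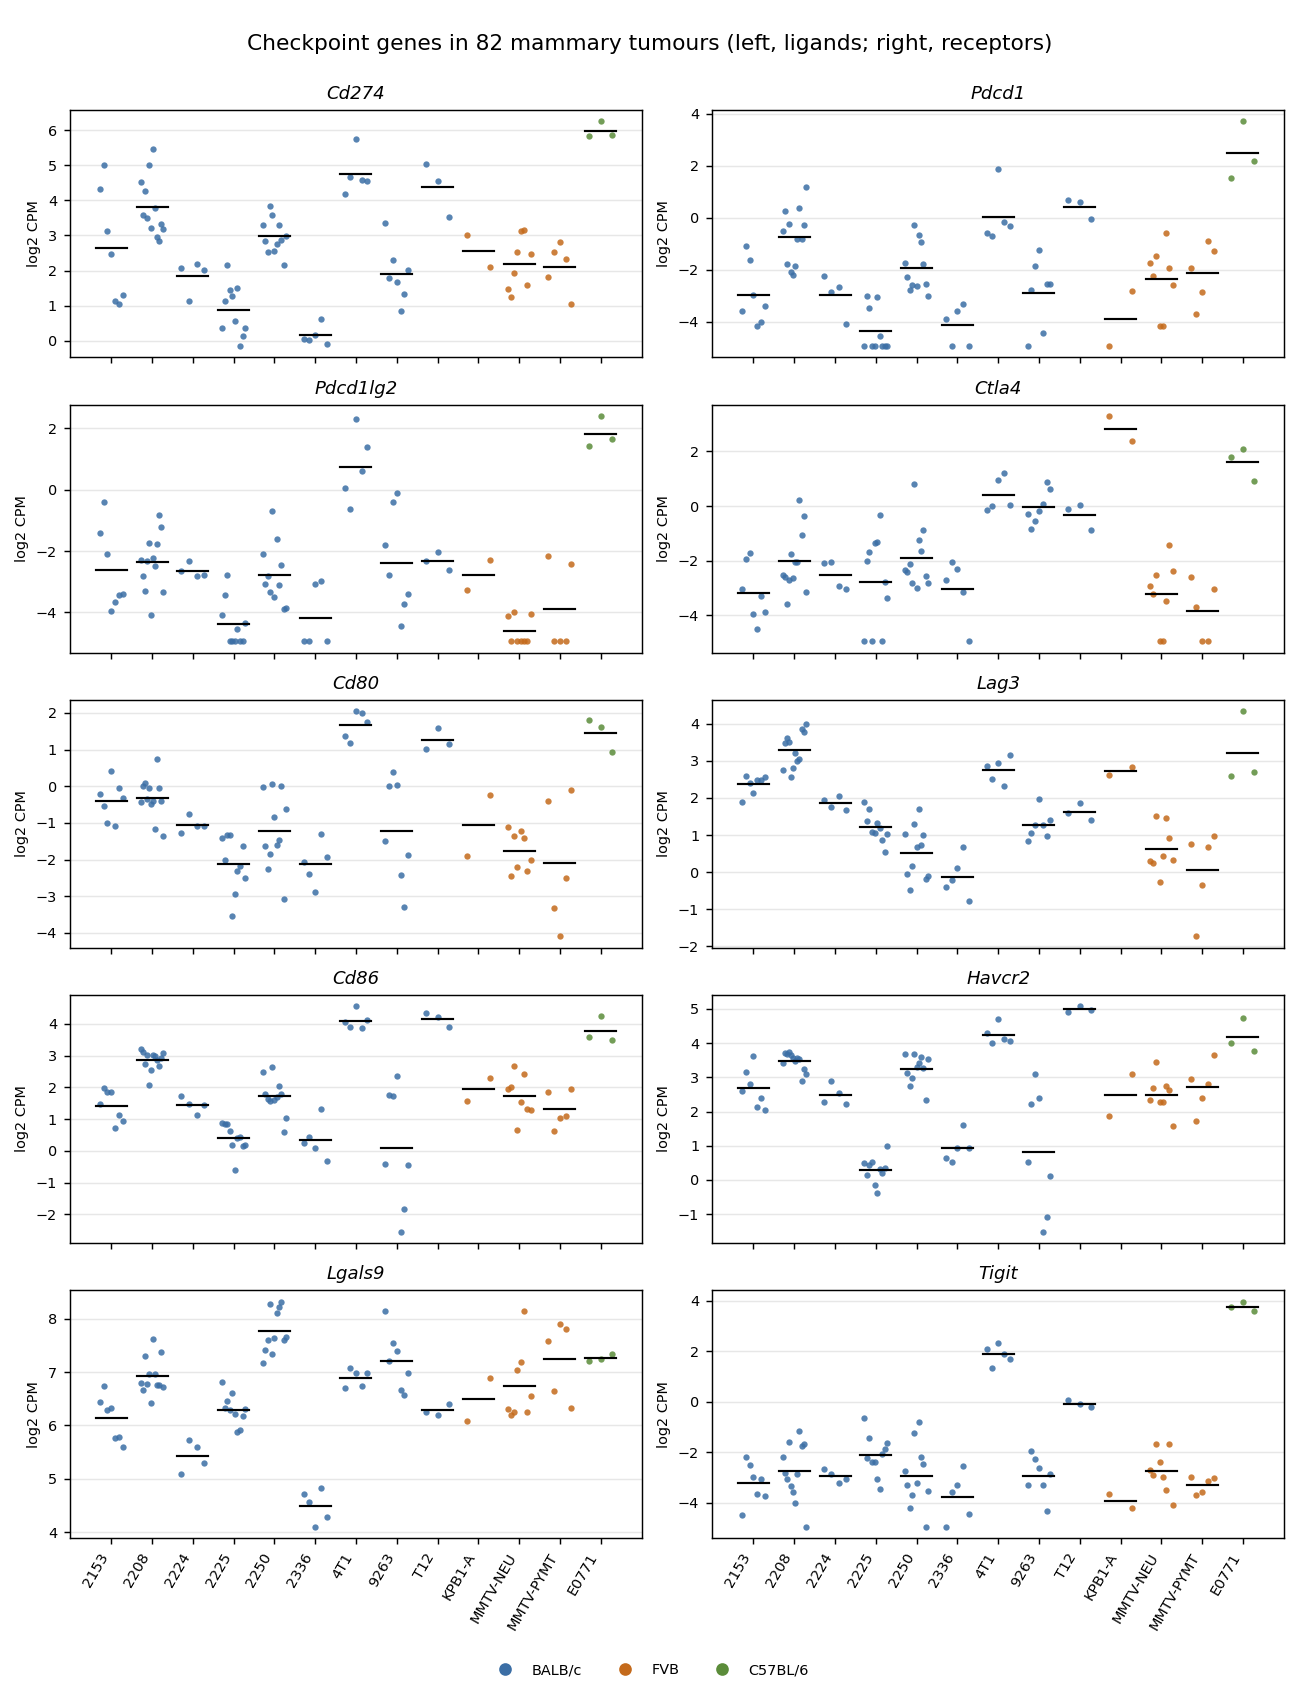
Level of each checkpoint gene in each model, as log2 CPM with 2 prior counts added. Points are libraries, bars are model means and colours are strains, with ligands in the left column and receptors in the right. E0771 leads for Cd274, Pdcd1 and Tigit, T12 for Havcr2, 2250 for Lgals9 and KPB1-A for Ctla4.

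In E0771, 10 of the 10 genes were called higher, where 29.4% of all genes tested were called higher and 56.4% were called in either direction. Their median log2 difference was 2.74, and that of all genes was -0.11. In 4T1 9 genes were called higher (25.5% of all genes, 49.1% in either direction), with a median of 2.16 against -0.08. In T12 6 genes were called higher (24.4% of all genes, 48.2% in either direction), with a median of 1.85 against -0.09. No checkpoint gene was called lower in these 3 models, where 26.9%, 23.6% and 23.8% of all genes were.

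In 2336, 10 of the 10 genes were called lower, where 25.4% of all genes were lower, 30.2% higher and 55.5% either. Their median log2 difference was -2.05, and that of all genes was -0.05. In 2225 7 genes were called lower (26.8% of all genes) and none higher (34.2%, or 61% in either direction), with a median of -1.76 against 0.02. The 3 genes not called in 2225 were Lgals9, Ctla4 and Tigit.

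The other models moved in part, and the shares of all genes called follow each count. In 2208 6 genes were called higher (29.4% of all genes) and none lower (24.7%, with 54.2% in either direction). In 2250 2 were higher (32.1%) and 1 lower (27.7%, with 59.8% in either direction). In KPB1-A 2 were higher (24.9%) and 1 lower (14.4%, with 39.2% either), and in 9263 2 were higher (32.5%) and 4 lower (21.9%, with 54.4% either). In 2153 1 was higher (29.4%) and 3 lower (23.6%, with 53.1% either), and in MMTV-PYMT 1 was higher (31%) and 3 lower (20.5%, with 51.5% either). In MMTV-NEU 4 were lower (28.4%) and none higher (34%, with 62.4% either), and in 2224 2 were lower (14.8%) and none higher (24%, with 38.7% either). The call of Cd274 in 2224, at -1.14 on the log2 scale with adjusted p = 0.042, was lost with any 1 of the 4 libraries left out (adjusted p from 0.0685 to 0.164), and under 10 of 12 alternatives in all, where adjusted p ran from 0.0169 to 0.164.

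**Figure D2:**
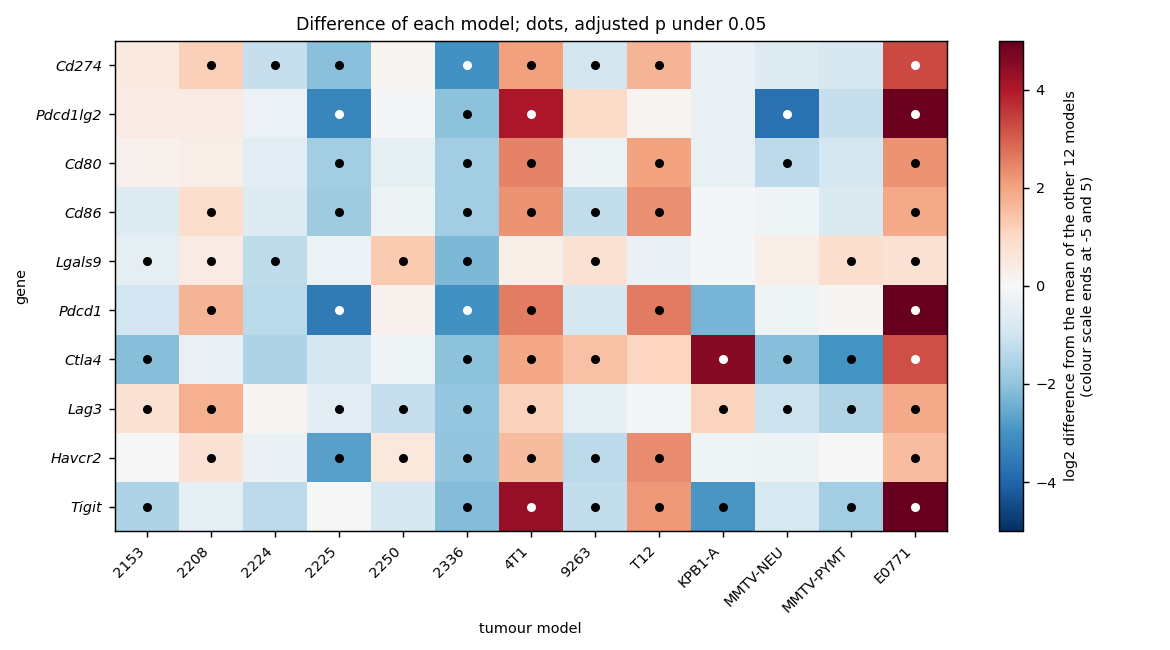
Log2 difference of each checkpoint gene in each model against the mean of the other 12 models. Dots mark an adjusted p under 0.05. Every gene is marked higher in E0771 and every gene is marked lower in 2336.

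Among the ligands, Cd274 encodes PD-L1 (chromosome 19, 29367455 to 29388095, plus strand, mm10). In E0771 it stood at 56.8, 76.6 and 57.6 CPM in the 3 libraries, and in 4T1 at 18.1, 25.5, 53.2, 23.6 and 23.2 CPM. All 3 E0771 libraries were above every library of the other 12 models. The log2 difference was 3.31 ± 0.33 (SE) in E0771, adjusted p = 2.96e-14, and 2.07 ± 0.30 in 4T1, adjusted p = 1.86e-08.

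T12 followed with 33.0, 23.6 and 11.5 CPM and a log2 difference of 1.70 ± 0.39, adjusted p = 0.000173. Libraries of 2208 ran from 7.07 to 44.0 CPM with a median of 11.7, overlapping both T12 and 4T1, and were called higher by 1.2 on the log2 scale. At the other end, 2336 held 0.996, 0.993, 1.09, 1.52 and 0.910 CPM, and 2225 held 0.871 to 4.46 CPM with a median of 1.81. The mean of E0771, 63.7 CPM, was 57.7 times that of 2336, 1.10 CPM, while 2336 and 2225 overlapped each other.

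Cd274 varied within 2153, where the 7 libraries held 20.01, 32.4, 8.71, 5.47, 2.16, 2.04 and 2.43 CPM. That model was not called for Cd274, at 0.49 ± 0.30 on the log2 scale with adjusted p = 0.178. In the GENCODE M21 annotation, 511 exon bases of Cd274 are shared with an antisense gene, AC119228.1, which the count table does not list. Whether the counting used strand is not given in the sources used here, so reads of the antisense gene cannot be told apart from those of Cd274.

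Pdcd1lg2, the gene of the PD-1 ligand PD-L2, lies next to Cd274 (chromosome 19, 29410919 to 29471161, plus strand). Its level was 2.63, 5.26 and 3.13 CPM in E0771 and 1.02, 0.619, 4.90, 1.49 and 2.62 CPM in 4T1. Libraries of these models overlapped, and their log2 differences were 4.92 ± 0.47 and 4.06 ± 0.43, with adjusted p of 8.64e-15 and 4.13e-13. Over the alternatives these differences ran from 2.68 to 5.22 in E0771 and from 1.88 to 4.30 in 4T1. Every other model averaged 0.302 CPM or less.

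Zero counts of Pdcd1lg2 occurred in 5 of 8 libraries of MMTV-NEU, 5 of 10 of 2225, 3 of 5 of 2336 and 3 of 5 of MMTV-PYMT. The first 3 of these models were called lower, and MMTV-PYMT was not. The call in 2336, at -2.05 on the log2 scale, was lost without replicate 1, 2 or 5 and the difference was -2.77 without replicate 4, and that in 2225 moved from -3.26 to -3.98 without replicate 3. T12, where Cd274 was called higher, was not called for Pdcd1lg2: its libraries held 0.168, 0.214 and 0.130 CPM, all below the lowest 4T1 library, and T12 was lower than 4T1 by a log2 difference of -3.63 ± 1.07, adjusted p = 0.00536.

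Per kilobase of transcript, Cd274 was above Pdcd1lg2 in each of the 82 libraries. The ratio of their mean levels per length ran from 7.31 in 4T1 to 72.0 in T12 among models without a zero count. The genes flanking the pair did not all move with it in E0771: Plgrkt was at 0.26 on the log2 scale (adjusted p = 0.118), Ermp1 at 0.08 (adjusted p = 0.716), and Ric1 fell by 0.64 (adjusted p = 0.000848).

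Cd80 and Cd86 encode the B7 ligands that CD28 and CTLA-4 share, and both are mainly made by antigen presenting cells (chromosome 16, 38455561 to 38496335, plus strand, and 36603869 to 36666081, minus strand). Cd86 stood at 20.2, 18.5 and 15.002 CPM in T12, at 14.8 to 23.5 CPM in 4T1 and at 11.1 to 19.2 CPM in E0771. Every library of these 3 models was above every library of the other 10, the highest of which was 9.23 CPM in 2208. The log2 differences were 2.28 ± 0.31 in T12, 2.24 ± 0.26 in 4T1 and 1.91 ± 0.33 in E0771, with adjusted p between 6.46e-12 and 5.93e-07.

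Cd80 had the same 3 models at the top, with 2.54, 2.25, 4.09, 3.95 and 3.33 CPM in 4T1, 1.88 to 3.45 CPM in E0771 and 1.98 to 2.98 CPM in T12. Their libraries overlapped each other, and all were above every library of the other 10 models, the highest being 1.64 CPM in 2208. The log2 differences were 2.47 in 4T1, 2.25 in E0771 and 2.00 in T12. In 2336 and 2225, Cd80 averaged 0.213 and 0.223 CPM and was called lower, by -1.73 and -1.75 on the log2 scale.

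Per length, Cd86 exceeded Cd80 in every library except 1 of model 9263, where the ratio was 0.920. The ratio of their means ran from 3.39 in 9263 to 12.96 in MMTV-NEU. In 9263 Cd86 itself spread from 0.139 to 5.15 CPM, a wider ratio of highest to lowest than in any of the other 12 models.

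Lgals9 encodes galectin-9, a sugar-binding ligand of TIM-3 (chromosome 11, 78962974 to 78984946, minus strand). Its order of models differed from that of the other ligands. The 11 libraries of 2250 ran from 143 to 320 CPM with a median of 199, and those of 2336 held between 17.1 and 28.3 CPM. The log2 difference was 1.31 ± 0.13 in 2250, adjusted p = 1.99e-14, and -2.26 ± 0.25 in 2336, adjusted p = 1.37e-12.

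Libraries of 2250 overlapped those of MMTV-PYMT (80.5 to 240 CPM), 9263 (95.2 to 283 CPM) and E0771 (148 to 162 CPM), which were called higher too, by 0.84, 0.76 and 0.72 on the log2 scale. All 5 libraries of 2336 were below every library of the other 12 models. 4T1 and T12, both high for most of the other genes, were not called for Lgals9, at 0.32 (adjusted p = 0.172) and -0.35 (adjusted p = 0.297). The mean of 2250, 225 CPM, was 9.84 times that of 2336.

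The start of Lgals9 is shown because this was the only one of 8 checkpoint promoters with a match to the interferon-stimulated response element, and Cd274 is shown beside it because its matched window held none. Both runs are the 250 bases before the RefSeq start site (GRCm38.p6), written 5′ to 3′ on the strand of the gene. Capitals mark the match, which is GAAANNGAAA read on the other strand.
Lgals9, chr11:78984925-78985174, minus strand: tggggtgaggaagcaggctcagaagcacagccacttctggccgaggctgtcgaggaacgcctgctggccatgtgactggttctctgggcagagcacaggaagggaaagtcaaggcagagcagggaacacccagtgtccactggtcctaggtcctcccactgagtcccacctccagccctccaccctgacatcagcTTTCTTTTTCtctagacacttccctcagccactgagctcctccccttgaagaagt
Cd274, chr19:29367188-29367437, plus strand: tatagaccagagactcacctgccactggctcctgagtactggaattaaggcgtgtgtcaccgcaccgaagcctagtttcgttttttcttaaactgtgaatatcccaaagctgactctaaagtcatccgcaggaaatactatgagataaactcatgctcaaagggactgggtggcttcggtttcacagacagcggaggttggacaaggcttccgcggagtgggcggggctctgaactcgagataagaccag

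RefSeq windows of 250 bases before and 50 after the start were matched for 8 of the 10 genes, all except Cd86 and Lag3. GAAANNGAAA was sought on both strands and found in 1131 of 32851 such windows, 3.44%. Lgals9 held 2 matches, at positions -55 and 16 from the start. The interferon-gamma activated site, TTCNNNGAA, was in 2726 windows, 8.3%, and in none of the 8. These matches describe letters only and show no binding.

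Among the receptors, Pdcd1 encodes PD-1 (chromosome 1, 94038305 to 94052553, minus strand). It stood at 2.85, 13.2 and 4.51 CPM in E0771, with a log2 difference of 5.17 ± 0.45, adjusted p = 9.59e-17. T12 held 0.921 to 1.57 CPM and 4T1 0.624, 0.582, 3.61, 0.863 and 0.765 CPM, and both were called higher, by 2.60 and 2.55 on the log2 scale. The 4T1 library at 3.61 CPM was above the lowest E0771 library.

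Single libraries carried part of these values. Without replicate 3, the log2 difference of Pdcd1 in 4T1 was 1.73, and without replicate 2 that of E0771 was 4.27. Libraries of 2208 held 0.183 to 2.24 CPM with a median of 0.600 and were called higher by 1.72. Pdcd1 was at 0 in 6 of 10 libraries of 2225 and 2 of 5 of 2336, and both models were called lower, by -3.54 and -3.02 on the log2 scale. Without replicate 6 the value of 2225 was -4.29.

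Ctla4 encodes a receptor of activated and regulatory T cells (chromosome 1, 60887000 to 60915832, plus strand). Its highest level was in KPB1-A, at 9.80 and 5.19 CPM in the 2 libraries, with a log2 difference of 4.57 ± 0.52, adjusted p = 1.24e-11. Both were above every other library of the series, the next being E0771 at 3.44, 4.26 and 1.86 CPM. Without replicate 1 of KPB1-A the log2 difference was 3.95.

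E0771 and 4T1 were called higher for Ctla4 by 3.23 and 1.95 on the log2 scale, and 9263 by 1.48 ± 0.43, adjusted p = 0.00268. The 7 libraries of 9263 held 0.791, 0.528, 0.660, 0.841, 1.03, 1.83 and 1.502 CPM. Ctla4 fell in 2153, 2336, MMTV-NEU and MMTV-PYMT, by -2.12, -2.04, -2.15 and -2.998 on the log2 scale. It was at 0 in 2 of 8 libraries of MMTV-NEU and 2 of 5 of MMTV-PYMT. The call in 2336 was lost without replicate 5, at -1.67.

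T cell markers did not have the order of Ctla4 across models. The summed CPM of Cd3d, Cd3e, Cd3g, Cd2 and Cd5 was 0.213 and 1.31 in the KPB1-A libraries and 18.1 to 60.0007 in E0771, and Cd3e was at 0 in 1 of the 2 KPB1-A libraries. The ratio of Ctla4 to this sum was 46 and 3.97 in KPB1-A and averaged 0.12 in E0771. Summed CPM of the regulatory T cell markers Foxp3, Il2ra, Ikzf2 and Ccr8 averaged 16.7 in KPB1-A, 13.9 in E0771 and 44.9 in T12. That of Cd8a, Cd8b1 and Cd4 averaged 7.28 in KPB1-A and 30.0 in E0771. The part of T cell content in Ctla4 levels was not tested. Of the genes around Ctla4, Cd28 and Icos, which encode costimulatory receptors, were not called in KPB1-A (adjusted p = 0.591 and 1), while Gm11581 and Gm11579 were called higher, at 0.412 and 0.448 CPM against 0.0697 and 0.00124 CPM in the other models (adjusted p = 1.04e-08 and 8.41e-08).

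KPB1-A and 9263 were also called higher for Tox, a transcription factor of exhausted T cells, and Cd96, a receptor of T and natural killer cells. Tox averaged 7.31 CPM in KPB1-A and 3.64 CPM in 9263, with log2 differences of 4.31 and 3.22. Cd96 averaged 2.67 and 2.24 CPM, with log2 differences of 2.63 and 2.36. Adjusted p for these 4 results lay between 2.66e-07 and 3.52e-15. Their lists did not move as one: of 8 regulators of exhaustion, 4 were called higher and 2 lower in KPB1-A (median 0.13) and 5 and 1 in 9263 (median 0.78), and of 20 other inhibitory genes, 5 were higher and 3 lower in KPB1-A (median -0.14) and 2 and 8 in 9263. Of 8 natural killer markers, none was higher and 3 were lower in KPB1-A, and none was called in 9263. Of 5 T cell markers, none was higher and 1 was lower in KPB1-A, and 1 was higher and none lower in 9263. Of 4 regulatory T cell markers, 1 was higher and none lower in KPB1-A, and none was called in 9263. Of Cd8a, Cd8b1 and Cd4, 1 was higher and none lower in KPB1-A, and 1 was lower and none higher in 9263. The part of cell content in the levels of Tox and Cd96 was not tested.

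**Figure D3:**
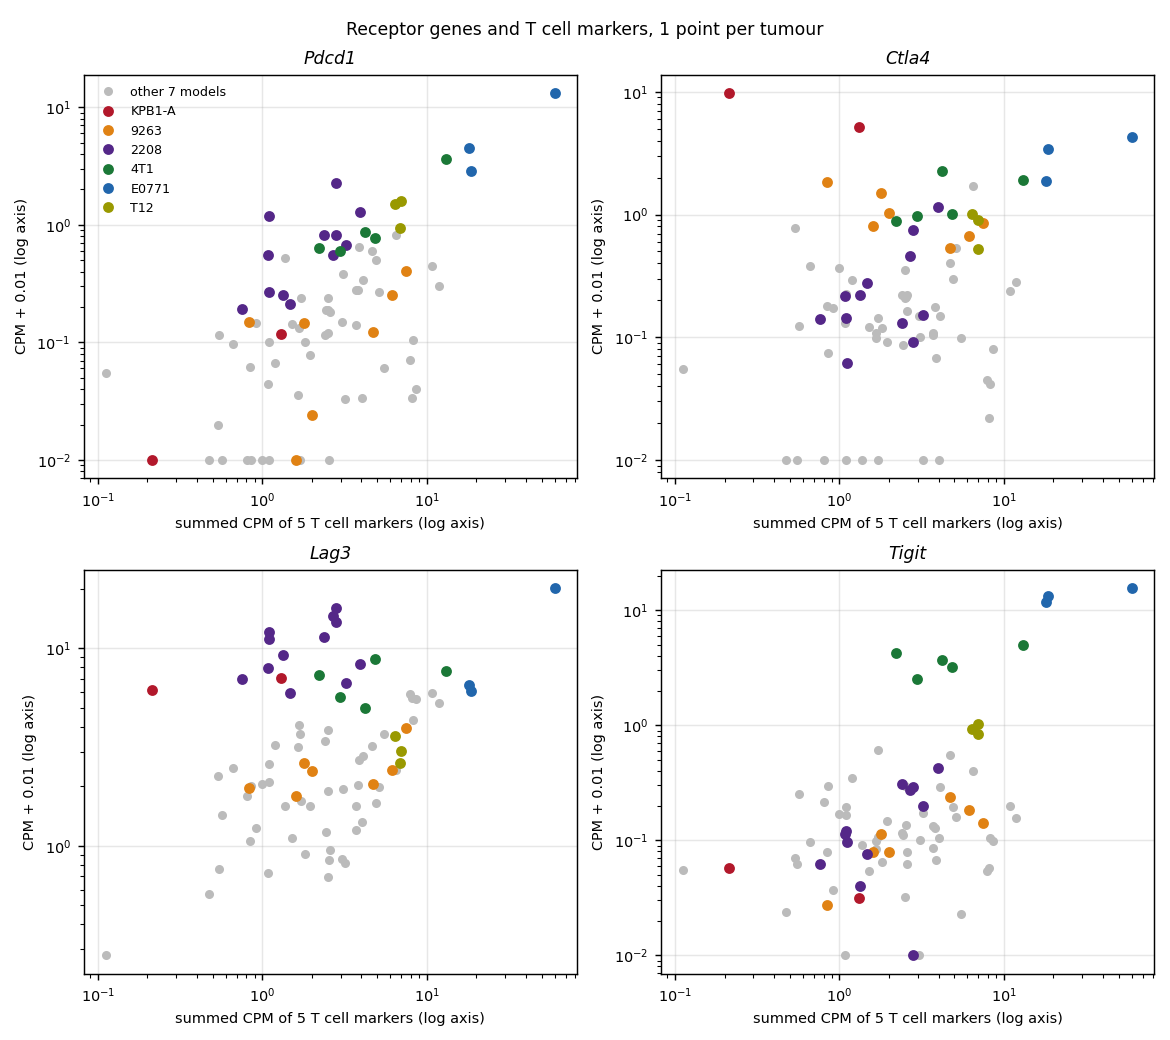
Level of Pdcd1, Ctla4, Lag3 and Tigit against the summed level of 5 T cell markers in the 82 libraries, on log axes in CPM, with 0.01 added to the gene's level. Points are libraries, coloured for 6 models and grey for the other 7. The 2 KPB1-A libraries, at 9.80 and 5.19 CPM, lie above all others for Ctla4 at sums of 0.213 and 1.31 CPM.

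Lag3 encodes a receptor of activated T cells that binds MHC class II (chromosome 6, 124904361 to 124911705, minus strand). Its level was 6.03, 20.1 and 6.49 CPM in E0771 and 5.93 to 16.0 CPM in 2208, with a median of 10.2, so the libraries overlapped. Their log2 differences were 1.88 ± 0.26 and 1.79 ± 0.16, with adjusted p of 3.60e-09 and 1.08e-16. Without replicate 2 of E0771 that model's log2 difference was 1.08.

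4T1, KPB1-A and 2153 were called higher for Lag3 too, by 1.16, 1.09 and 0.71 on the log2 scale. With either KPB1-A library left out the call was lost, with adjusted p of 0.0876 and 0.165 in a range of 2.59e-07 to 0.165 over 10 alternatives. In 2208 the T cell marker sum was 0.758 to 3.95 CPM, and 0 of the 5 T cell markers were called in either direction. Relative to that sum, Lag3 had a mean ratio of 6.12 in 2208. Only KPB1-A had a higher mean ratio, at 17.1, with 5.39 and 28.9 in its libraries. Mean ratios in the other models ran from 0.34 in E0771 to 2.61 in 2225. Lag3 was lowest in 2336, at 0.557 to 1.57 CPM, and was called lower there and in 2250, MMTV-PYMT, MMTV-NEU and 2225.

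Havcr2 encodes TIM-3 (chromosome 11, 46454935 to 46481255, plus strand). Its level in T12 was 30.0, 33.6 and 31.2 CPM, above every library of the other 12 models, the highest of which was 26.4 CPM in E0771. The log2 difference was 2.37 ± 0.29 in T12, adjusted p = 8.53e-11, 1.58 ± 0.25 in 4T1 and 1.55 ± 0.32 in E0771. In 2225 the 10 libraries held 0.741 to 1.97 CPM with a median of 1.23, and the log2 difference was -2.71 ± 0.27, adjusted p = 4.31e-14.

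Summed CPM of 6 macrophage markers was highest in the same 3 models, at a mean of 2323 in T12, 2079 in E0771 and 1965 in 4T1. It was 849 in 2208 and lowest in 2225, at 269. Between these the order differed: 9263 and 2224 had sums of 441 and 478 with Havcr2 at 3.07 and 5.65 CPM. MMTV-PYMT had a sum of 362 with Havcr2 at 7.12 CPM. The ratio of Havcr2 to the sum averaged from 0.0047 in 2225 to 0.0215 in MMTV-PYMT. Over the 13 model means, Havcr2 was most like Gatm, March1 and Mpeg1 (r = 0.98, 0.97 and 0.97), and Cd86 most like March1, Cd83 and Lair1. Over deviations from the model mean in the 82 libraries, Havcr2 was most like Ctss, Dock2 and Cybb (r = 0.93, 0.91 and 0.91). Havcr2 and Cd86 correlated at r = 0.94 over model means and 0.85 over deviations. Points in these correlations share their libraries and depth, and the part of macrophage content in Havcr2 and Cd86 levels was not tested.

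Tigit encodes a receptor of T and natural killer cells (chromosome 16, 43648867 to 43664146, minus strand). It had the smallest adjusted p of the 10 genes in the test among the 13 models, with 13.4, 15.5 and 11.8 CPM in E0771, 4.25, 2.505, 4.99, 3.69 and 3.22 CPM in 4T1, and 1.008, 0.919 and 0.835 CPM in T12. None of these 3 sets of libraries overlapped another, and none overlapped the other 10 models, whose highest library was 0.602 CPM in 2225. The log2 differences were 6.37 ± 0.36 in E0771, adjusted p = 4.15e-26, 4.35 ± 0.33 in 4T1, adjusted p = 1.71e-19, and 2.17 ± 0.46 in T12.

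The T cell marker sum averaged 32.2 CPM in E0771, 8.72 in 2153, of which Cd5 made up 8.12, 6.76 in T12 and 5.45 in 4T1. Summed CPM of 8 natural killer markers averaged 53.8 in E0771, 44.2 in 4T1 and 22.4 in T12 and 7.63 or less in the other 10 models, the same order of these 3 models as Tigit. Of the 8 markers, 7, 7 and 8 were called higher there, and none lower. Called lower were 8 in 2225, 5 in MMTV-PYMT, 4 in 2336, 3 in KPB1-A, 2 in 2250 and 1 each in 2153 and MMTV-NEU. Among these other models 2 were called higher in 2224 and 1 each in 2208, 2250 and MMTV-NEU. The part of T and natural killer cell content in Tigit levels was not tested. The ratio of Tigit to the T cell sum averaged 0.94 in 4T1, 0.546 in E0771 and 0.136 in T12. It averaged 0.237 in 2225, 0.128 in MMTV-PYMT and 0.119 in KPB1-A, and 0.0748 or less in the remaining models. Over model means Tigit was most like Zxdb, Procr and Sgk2 (r = 0.96, 0.95 and 0.95, n = 13). Tigit was called lower in KPB1-A at 0.0473 and 0.0214 CPM, a call lost with either library left out and with the FVB models alone as reference (adjusted p = 0.095, 0.209 and 0.255, in a range of 1.13e-05 to 0.255 over 10 alternatives). Without replicate 1 the value moved from -2.90 to -3.60.

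The genes most like a checkpoint gene differed between the scale of models and that of libraries. Cd274 was most like Klra2, Mnda and Scimp over the 13 model means (r = 0.97, 0.97 and 0.96) and most like Nos2, Gbp5 and Ccl3 over 82 library deviations (r = 0.80, 0.73 and 0.73). Lgals9 was most like Trim25, Atg4b and Mitd1 over model means (r = 0.92, 0.88 and 0.86), and most like Rtp4, Irf7 and Oasl2 over deviations (r = 0.77, 0.76 and 0.76). Pdcd1 and Cd274, a receptor and its ligand, correlated at r = 0.94 over model means and 0.07 over deviations.

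For the other 5 genes the nearest genes over model means and over deviations were as follows. Pdcd1lg2 was nearest Gsg1, Cd40 and Bdkrb1 over models and P2ry10, Gimap3 and Icos within them. Pdcd1 was nearest Pyhin1, Myo1g and Gapt, and then Ubd, H2-Ab1 and Tlr12. Lag3 was nearest Cmc1, Mgst2 and Gcnt2, and then Gpsm3, H2-Ab1 and Tnfsf12. Ctla4 was nearest AB124611, Spn and Nrn1, and then Rab33a, Izumo1r and Mcemp1 (r = 0.60, 0.57 and 0.56). Within models, Cd80 was nearest Nrp2, Ccl22 and Lyz2.

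Other inhibitory genes, a list of 20 that includes further receptors, their ligands and immunosuppressive enzymes, did not move as one. In E0771 13 were called higher and 5 lower, in 4T1 13 and 4, and in T12 11 and 5, with median log2 differences of 1.43, 0.87 and 1.003 against -0.11, -0.08 and -0.09 over all genes. Ceacam1, a partner of TIM-3, fell by 5.07 on the log2 scale in E0771, by 5.21 in 4T1 and by 4.45 in T12. Vtcn1, the B7 family inhibitory ligand B7-H4, fell by 4.41, 2.69 and 4.69. Fgl1, a LAG-3 ligand, was higher by 4.31 in E0771 and fell by 2.67 in T12, and Nt5e, the adenosine-producing ectoenzyme CD73, was higher by 4.38 in 4T1.

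In 2208, 8 of the 20 were called higher and 1 lower, led by Cd200, at 3.17. In 2250, 5 were higher and 7 lower, and Ceacam1 was higher by 4.61. In 2336, 2 were higher and 12 lower, led by Nt5e at -4.56, Vtcn1 at -3.17 and Btla at -2.70. In 2225, 7 were higher and 9 lower, with medians of -1.49 in 2336 and -0.52 in 2225.

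Costimulatory genes were tested for 12 of a list of 14. In E0771 10 were called higher and none lower, including Tnfsf4 (OX40 ligand, 4.996), Cd40 (4.58), Icos (3.71) and Cd226 (3.40), the activating competitor of TIGIT. In 4T1 8 were higher and 1 lower, in T12 6 and 2, and in 2336 2 and 6. Their median log2 difference was 2.54 in E0771, 1.502 in 4T1, 0.87 in T12 and -1.35 in 2336.

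Interferon response genes, a list of 8, were called higher in all 8 cases in E0771, in 6 each in 2250, 2208 and T12, and in 4 in 4T1. In MMTV-PYMT 5 were called higher and 2 lower, and in MMTV-NEU 4 and 2. They were called lower in all 8 cases in 2225 and in 7 of 8 in 2336 and in 2224. Their median log2 difference was 3.41 in E0771 and -2.06 in 2225. In E0771 Cxcl10 and Cxcl9, chemokines that draw T cells, were higher by 4.603 and 3.95 on the log2 scale, and Ifng itself by 6.41. Summed CPM of the 8 genes averaged 1378 in E0771, 613 in 4T1, 516 in MMTV-PYMT, 449 in T12, 441 in 2250, 81.8 in 2225 and 66.2 in 2336. Cd274 was not called in MMTV-PYMT, at -0.78 on the log2 scale (adjusted p = 0.0963).

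Of the pairs of models compared, T12 and 2208, both BALB/c, differed in 6 checkpoint genes, where 48.5% of all genes differed. Cd80, Cd86, Havcr2 and Tigit were higher in T12, where 23.7% of all genes were, by 1.53, 1.29, 1.503 and 2.44 on the log2 scale. Lgals9 and Lag3 were lower, where 24.7% of all genes were, by -0.68 ± 0.29 (adjusted p = 0.0480) and -1.75 ± 0.40 (adjusted p = 0.000157). T12 against 4T1 gave 3 lower (17.1% of all genes) and none higher (15.4%, with 32.4% either): Pdcd1lg2 by -3.63, Tigit by -2.02 and Lag3 by -1.17. The calls of Lgals9 (T12 and 2208) and Tigit and Lag3 (T12 and 4T1) were each lost under 3 or more alternatives, 15 of 22 for Lgals9, and that of Cd80 without replicate 2 of T12, at 1.34. MMTV-PYMT and MMTV-NEU, the transgenic FVB models, differed in 0 of the 10 genes by edgeR, where 27.7% of all genes differed (15.1% higher and 12.5% lower in MMTV-PYMT), and 1 of the 10 had an unadjusted p under 0.05, Pdcd1lg2 (edgeR p = 0.0231). DESeq2 and limma called 0 as well.

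Within models of 6 or more libraries, each gene was set against the score of 1 marker list, giving 60 relations in 6 models. T cell markers were used for Pdcd1, Ctla4, Lag3 and Tigit, interferon response genes for Cd274 and Lgals9, and macrophage markers for Pdcd1lg2, Cd80, Cd86 and Havcr2. In 16 of them the libraries fell into separate sets on the score, and no pooled correlation is given for those. Of the other 44, 38 were positive and 14 passed an adjusted permutation p of 0.05 by Pearson's r, 7 by Spearman's rho, and 2 after the 2 libraries farthest from the median score were left out.

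Tigit and the T cell score in 2250 gave r = 0.94 (permutation p = 3.0e-05, adjusted p = 0.0018) and rho = 0.97 (permutation p = 3.0e-05, adjusted p = 0.0018) over 11 libraries. Without the 2 farthest libraries r was 0.89. Pdcd1 in the same libraries gave r = 0.90 (permutation p = 0.00021, adjusted p = 0.0063) and rho = 0.88 (permutation p = 0.00083, adjusted p = 0.0124), with r = 0.92 without the 2 farthest. These were the 2 relations that passed after that step.

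Lgals9 and the interferon response score in MMTV-NEU gave r = 0.90 (exact permutation p = 0.00067, adjusted p = 0.00952) and rho = 0.95 (exact permutation p = 0.00114, adjusted p = 0.0137) over 8 libraries, and r = 0.94 without the 2 farthest. Cd274 in the same libraries gave r = 0.82 (exact permutation p = 0.0115, adjusted p = 0.0383) and rho = 0.81 (exact permutation p = 0.0218, adjusted p = 0.0917), and r = 0.81 without the 2 farthest. Havcr2 and the macrophage score in 2250 gave r = 0.86 (permutation p = 0.00103, adjusted p = 0.0103) and rho = 0.78 (permutation p = 0.00637, adjusted p = 0.045), and r fell to 0.58 without the 2 farthest, where it no longer passed (adjusted p = 0.321).

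**Figure D4:**
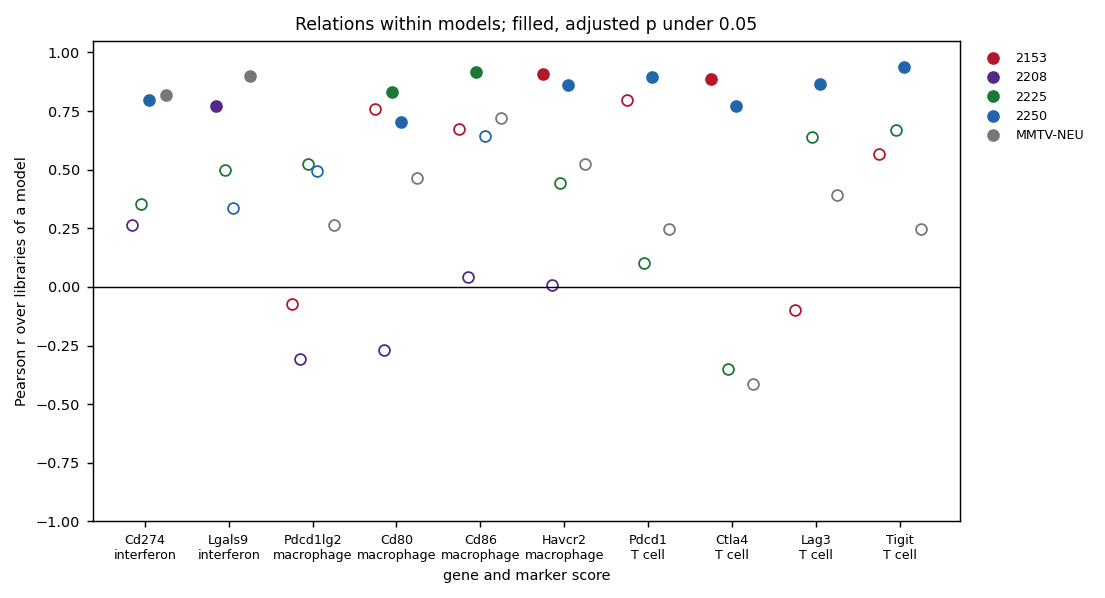
Pearson's r between each checkpoint gene and its marker score within a model, for the 44 relations whose libraries did not fall into separate sets. Filled points passed an adjusted permutation p of 0.05. 38 of the 44 lie above 0 and 14 are filled.

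Library numbers in the titles fell into 37 runs of near-consecutive numbers, and the sources used here do not state what those numbers stand for. A median 61.3% of the within-model variance of the checkpoint genes lay between runs, against 63.4% for all genes, with 76.9% for Havcr2, 76.6% for Cd86 and 43.2% for Lag3. Within runs, r for Tigit and the T cell score in 2250 was 0.68 and r for Pdcd1 was 0.24, over 8 libraries in 3 runs. Values of r within runs were not tested. In MMTV-NEU r with the interferon response score within runs was 0.87 for Cd274 and 0.94 for Lgals9, and for Havcr2 with the macrophage score in 2250 it was 0.96.

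E0771 and T12 each lie in a single run, so the spread among their libraries holds no difference between runs. The errors of their values come from 1 fit to all 82 libraries, so they also draw on the spread in the other models. The KPB1-A libraries fell into separate runs by the numbers of that model alone, and into the same run with the numbers of all models. Over all models together the libraries formed 24 runs, of which 8 held more than 1 model. The 1 library without a number, of 2208, was counted as a run of its own. The runs of E0771, T12 and 2336 held no other model. With these runs as a random block in limma-voom, an alternative added after seeing the data, the consensus correlation within runs was 0.44, and 10 of the 10 genes were called in E0771, 10 in 4T1, 6 in T12 and 7 in 2225. In 2336 7 checkpoint genes were called (5304 of all genes higher and 3979 lower), with Pdcd1lg2, Cd80 and Ctla4 lost (adjusted p = 0.079, 0.0614 and 0.0618). Lag3 in 2225 (adjusted p = 0.117) and Tigit and Lag3 between T12 and 4T1 (adjusted p = 0.0571 and 0.095) were lost too. So were Lgals9 in 2153 and between T12 and 2208, Cd274 in 2224, and Cd274 and Tigit in 9263 (adjusted p 0.0693 to 0.250). Gained calls were Ctla4 in 2225 (-1.72 on the log2 scale, adjusted p = 0.0183), Lgals9 in 4T1, Tigit in 2250 and Cd86 in 2153. Cd80 in 9263 and both Pdcd1lg2 and Cd80 in MMTV-PYMT were gained as well. The 7 called in 2225 thus held Ctla4 and not Lag3.

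**Figure D5:**
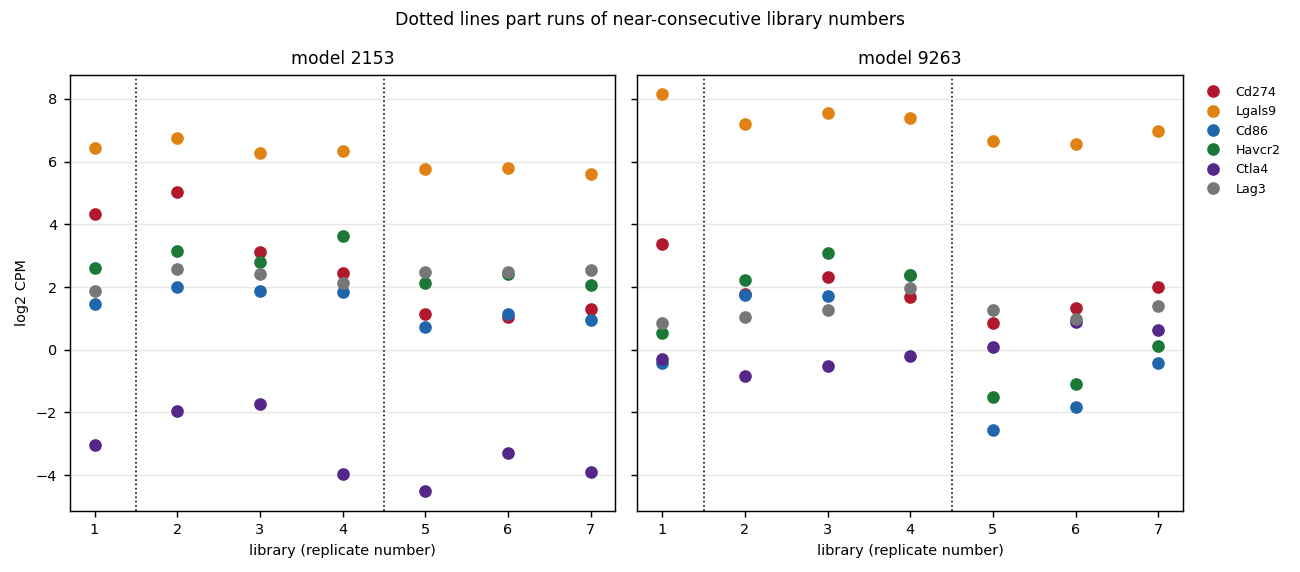
Level of 6 checkpoint genes in the 7 libraries of 2153 and of 9263, as log2 CPM by replicate number. Dotted lines part runs of near-consecutive library numbers. Replicates 5 to 7 of 2153, at 2.16, 2.04 and 2.43 CPM of Cd274, lie below the other 4, and replicates 5 and 6 of 9263 have the lowest Cd86 and Havcr2.

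In 9263 Cd86 held 0.721, 3.35, 3.26, 5.15, 0.139, 0.250 and 0.709 CPM and Havcr2 held 1.42, 4.598, 8.47, 5.23, 0.319, 0.439 and 1.04 CPM. Replicates 2 to 4 were high for both, and summed macrophage markers ran from 31.9 to 1220 CPM in that model. Ctla4 did not share this pattern, its highest 2 values being in replicates 6 and 7. The part of macrophage content or library run in these values was not tested.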

How the data were processed

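RNA was extracted from cryopreserved tumours and made into TruSeq mRNA libraries, per the labels. STAR, SAMtools, Picard, Salmon and build mm10 are named in the submitters' processing notes, without versions or settings. The authors deposited a table of estimated counts per gene, of which 85.5% were whole, and a table of normalized signal values, which equal the count over its library's 75th percentile times 1000, with zeros as 1. All columns were mapped to samples by title, and groups are the model names in the titles.

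For testing, the estimated counts were set to the nearest whole number, and edgeR 4.0.16 was run in R 4.3.3. Genes were kept by filterByExpr (minimum count 10, minimum total 15), libraries scaled by the trimmed mean of M values, and a robust quasi-likelihood model with 1 mean per model fitted to 22847 genes in 82 libraries, with 69 residual degrees of freedom. P-values were adjusted by Benjamini-Hochberg over all 22847 genes. An F test compared the 13 models, each model was compared with the unweighted mean of the other 12, and 3 pairs of models were compared. Replicates are libraries, and the labels do not say whether they came from separate animals, so p-values measure the spread among libraries, which may be partly technical. mm10 is a C57BL/6 genome, and mapping of BALB/c and FVB reads to it was not tested.

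Likeness was Pearson's r over model means and over deviations from them, among 14760 genes with at least 1 CPM in a model, naming the 3 nearest genes of each. Relations within models used permutation tests with 100000 resamples, exact at 8 libraries or fewer. Upstream sequences and promoter windows come from RefSeq (GRCm38.p6), and the motifs searched are textbook consensus patterns. Alternatives were DESeq2 1.42.0, its size factors, no filter, limma 3.58.1 on log2 of the deposited signal plus 1 or 10, a reference of the same strain, and each library left out. The genes were named as the 10 members, in each described list up to 4 genes with the largest change that passed, and genes a result turned on. One T cell marker of the planned list and some nearest genes are not reported here, and T cell sums and scores use the other 5 markers. Members and lists were chosen with earlier results of these data known. Separate sets of libraries, runs of library numbers (a gap over 10 starts a new run), limma-voom with and without runs as a random block, and a T cell score without Cd5 were added after seeing the data.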

Additional observations from a re-analysis of the deposited data

Results flagged for a closer look

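Of 80 groups of 4 to 10 libraries examined, 3 held a library far from the others, and chance would flag about 1 group in 20, or 4. Pdcd1 in 4T1 was 3.61 CPM (309 counts) in replicate 3 and 0.582 to 0.863 CPM in the other 4, and the T cell marker sum was 13.01 CPM in that library, the highest of the 5. Cd274 in 2224 was 2.14 CPM (204 counts) in replicate 2 and 3.99 to 4.50 CPM in the other 3. Cd86 in 2225 was 0.632 CPM (58 counts) in replicate 6 and 1.08 to 1.81 CPM in the other 9.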

How the results depend on the processing

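No paired analysis was possible because the labels give no replicate number that models share, and models could not be fitted against the mean of the other 12 with runs of library numbers as a fixed block, since the runs of E0771, T12 and 2336 hold no other model. Of 160 gene-by-comparison results, DESeq2 left 154 on their side of the threshold with their direction, its size factors in edgeR 159, no filter 158, and limma on the deposited values plus 1 or 10 left 142 and 131. Added after seeing the data, limma-voom on the counts left 149, and 142 with runs as a random block. A reference of the same strain changed the sign of 1 called result, Tigit in MMTV-PYMT, from -1.73 to 0.10. There it was no longer called (edgeR adjusted p = 0.955). The cause was not tested. Another 94 sign changes concerned differences called in neither fit. The number of the 10 genes called moved in 2224 from 2 to 1 without the filter, with the same strain and with limma-voom with and without the run block, and to 4 with DESeq2 and with limma plus 10. It moved in 2250 from 3 to 6 and 7 with limma plus 1 and 10, in MMTV-NEU from 4 to 7 and in MMTV-PYMT from 4 to 8 with limma plus 10. T12 against 4T1 went from 3 to 1 with the run block. Of all 60 within-model relations, which include the 16 with separate sets of libraries, 20 passed, 2 without the 2 farthest libraries, while 22 passed with the deposited values and 20 with the T cell score without Cd5. With each library left out in turn, the count called in E0771, 4T1, 2208 and T12 was 10, 9, 6 and 6 throughout, in 2336 8 to 10, in 2225 7 to 8, in 2250 3 to 4, in MMTV-NEU 4 to 5, in MMTV-PYMT 4 to 6, in 2153 3 to 6, in 9263 4 to 7, in 2224 1 to 1, in KPB1-A 1 to 1 against 3, in T12 against 2208 4 to 6, in T12 against 4T1 1 to 3 and in MMTV-PYMT against MMTV-NEU 0 to 1. With 2 libraries of KPB1-A and zero counts of Pdcd1lg2, Pdcd1, Ctla4 and Tigit in several models, depth limits the low levels. The size of a difference also moved for these genes. Over the alternatives Pdcd1 in 2225, at -3.54, ran from -4.29 to -0.92, and Pdcd1lg2 in E0771, at 4.92, from 2.68 to 5.22.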
